A study of Rattus norvegicus with 8 samples.

Results

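The core circadian clock genes were Arntl (also named Bmal1), Clock, Npas2, Cry1, Cry2, Per1, Per2, Per3, Nr1d1 and Nr1d2. They are 10 of the 26514 gene names on the array, found as the probes that are not control spots and carry one of these names. Together they have 15 probes. These genes were chosen by results of the same 4 stressed and 4 control rats, in which several of them differed between the groups, so their differences between the groups and between each other are described here and not tested.

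RNA came from the lumbar L6S1 segments of the spinal cord of male Wistar rats that were 12 weeks old. The 4 stressed rats stood on a platform in water (water avoidance stress, WA) on 10 days, and their cords were taken 24 h after the last session. The other 4 rats were controls, which per the study's methods were handled and not exposed to WA. All rats were kept under a light-dark cycle and killed under isoflurane, and the cord was flushed out of the spine with saline. Each rat had 1 array, and the time of day at which the cords were taken is not given in the sources used here. Both groups were of the same sex and strain, and the labels give no genotype or drug for either.

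The clock of a mammalian cell is a loop of transcription and translation that runs with a period of about a day. ARNTL pairs with CLOCK, or with NPAS2 in its place, and the pair switches on the Per and Cry genes through E-boxes in their promoters. PER and CRY proteins accumulate and shut the pair off. In a second loop the nuclear receptors NR1D1 and NR1D2 (REV-ERB) repress Arntl, while the ROR receptors activate it through the same sites. Arntl, Clock and Npas2 are called the positive limb here and the other 7 genes the negative limb. As each transcript rises and falls over the day, a single collection time samples 1 point of the cycle.

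Values below are log2 signals of a probe, centred on its array's 75th percentile, so that 0 is the signal at that percentile. They compare rats at the same probe and do not compare the levels of different genes. All 15 probes were well above background on all 8 arrays, and none of their spots was saturated. Of the 10 genes, 6 have 1 probe, 3 have 2 probes and Per3 has 3. For a gene with several probes the brightest one stands for the gene, and the other probes of clock genes are given beside it.

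The probes on which the description turns are shown so that a reader can see which stretch of each transcript was read. Each probe is 60 bases long, and the first 30 bases are printed 5′ to 3′ with the rn4 position of the whole probe as given in the array files, with no capitals as no part of them is singled out.
Arntl, from base 2048 of the transcript, chr1:171154767-171154826, plus strand: aaccagagctggagcaggaaaaataggtcg
Arntl, from base 2519, chr1:171161969-171162028, plus strand: tgaagttttacagtctgtgaagcttactgg
Npas2, from base 2389, chr9:38417496-38417555, plus strand: tccaaaaccaataagaagctcccagttgct
Npas2, from base 3804, chr9:38433884-38433943, plus strand: gcaaagcacaatctcacaatgattccgaat
Per1, from base 2963, chr10:55866200-55866259, plus strand: gttcaactcaagatgcagttccccactcca
Per2, from base 5433, chr9:90645610-90645669, minus strand: tgttaactgctaagaagttgacttcctagg
The pairs of probes on Arntl and on Npas2 read different stretches of 1 transcript, and the spread between them is given with the values.

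The stretches through which the loop is known to act were looked up in the RefSeq promoters of build GRCr8, which reach from 250 bases before to 50 bases after the start of a gene. Promoters were found for 9 of the 10 genes, with Nr1d1 and Clock having 2 each, 11 promoters in all. The motifs searched on both strands were the E-box CACGTG, its variant CACGTT, the D-box TTATGTAA, the ROR and REV-ERB half-site AGGTCA and the cAMP response element TGACGTCA. They do not overlap in the windows printed here. Capitals mark the motif.
Arntl, half-site at -15 to -10, chr1:176766293-176766327, plus strand: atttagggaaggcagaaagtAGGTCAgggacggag
Nr1d2, half-site at -187 to -182, chr15:9954827-9954872, plus strand: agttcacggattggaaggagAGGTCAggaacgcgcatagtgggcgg
Per2, D-box at -192 to -185, chr9:99497158-99497205, minus strand: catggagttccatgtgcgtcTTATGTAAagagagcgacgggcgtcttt
Per2, E-box variant at -62 to -57, chr9:99497030-99497075, minus strand: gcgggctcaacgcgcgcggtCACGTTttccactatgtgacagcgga
Nr1d1, E-box variant at -174 to -169 of 1 promoter, chr10:84231961-84232006, minus strand: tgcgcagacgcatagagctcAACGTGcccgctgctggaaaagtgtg
Nr1d1, E-box at -191 to -186 of the other promoter, chr10:84229620-84229665, minus strand: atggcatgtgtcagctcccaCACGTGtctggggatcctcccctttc
Cry2, E-box variant at -212 to -207, chr3:98860624-98860669, minus strand: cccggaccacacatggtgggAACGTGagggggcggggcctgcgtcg
Thus 1 member had an E-box in this window, 3 had the variant, 2 the half-site and 1 the D-box, and no cAMP response element was found in it. Among all 33469 promoters, 6.42% held the E-box, 4.83% the variant, 16.2% the half-site, 0.893% the D-box and 1.83% the cAMP response element. A match of letters does not show that a factor binds there.

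The arrays differed in ways that touch every value below. The unscaled 75th percentile ranged from 1751 to 2335, and between 22998 and 24064 probes were well above background. For 1887 transcripts read by probes 300 or more bases apart, the median log2 difference of the 5′ from the 3′ probe (5′ minus 3′), centred over the arrays, was between -0.30 and -0.18 in control rats 1, 3 and 4. It was 0.22 in control rat 2 and between 0.09 and 0.17 in the stressed rats. Control rat 2 also lay with the stressed rats on the first principal component, at 46.1, where the stressed rats lay between 8.23 and 34.5 and the other control rats between -56.3 and -39.4. Values of the clock genes and counts of calls are therefore also given without this rat. Apart from control rat 2, the 5′ minus 3′ value was negative in every control and positive in every stressed rat. In those rats it cannot be told apart from the group. Fits with this value as a covariate therefore rest largely on control rat 2, and they are given as a description. The control rats shared a row of the slide and the stressed rats the other row, so row and group cannot be told apart. Markers of neurons, astrocytes, oligodendrocytes and microglia were measured as the label spinal cord implies, and sensory ganglion markers were low. The ganglion list (Scn10a, Trpv1 and Prdm12) had 2 of 3 markers tested, and their summed signal was between 0.0422 and 0.0669 of the 75th percentile.

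The positive limb was higher in stressed rats at all 6 of its probes. Arntl, which encodes the partner shared by CLOCK and NPAS2, was higher by 0.65 at the probe from base 2048 and by 0.24 at the brightest probe, and Npas2 was higher by 0.86 and 0.51. In a bulk sample, fewer cells of a type and less RNA per cell cannot be told apart, and this holds for each gene below.

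At its probe from base 2048, Arntl read -3.74, -3.54, -3.58 and -3.67 in control rats 1 to 4 and -3.02, -2.79, -3.12 and -3.001 in stressed rats 1 to 4. The groups did not overlap, and control rat 2, the highest of the controls, lay close to control rat 3. Stressed minus control, the log2 fold change was 0.65 (SE 0.09), a linear fold of 1.57. It was 0.68 without control rat 2 and 0.58 with the 5′ minus 3′ value as a covariate. This probe has a single spot on the array.

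The brightest Arntl probe, from base 2519, read -1.15, -1.41, -1.19 and -1.10 in the control rats and -0.94, -0.78, -1.20 and -0.95 in the stressed rats. Stressed rat 3 fell among the controls, and the other 3 stressed rats were above every control. Here the log2 fold change was 0.24 (SE 0.11), and it was 0.18 without control rat 2, the lowest of the controls, and 0.39 with the 5′ minus 3′ covariate. Both probes thus had the same sign with different sizes.

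Npas2, a relative of Clock that is expressed in the forebrain and other tissues, gave -2.15, -1.44, -1.93 and -1.79 in control rats at its brightest probe and -1.35, -1.27, -1.33 and -1.30 in stressed rats. The stressed rats had an SD of 0.04 (n = 4) and lay above all controls, of which control rat 2 came closest. Its log2 fold change was 0.51 (SE 0.14), a linear fold of 1.43. It was 0.64 without control rat 2 and 0.20 with the 5′ minus 3′ covariate.

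The other Npas2 probe, from base 2389, read -3.42, -2.60, -3.62 and -3.07 in control rats and -1.82, -2.49, -2.76 and -2.20 in stressed rats. Here stressed rat 3 lay below control rat 2, so that the groups overlapped. The fold change was larger than at the brightest probe on the log2 scale, at 0.86 (SE 0.27), and it was 1.05 without control rat 2 and 0.40 with the 5′ minus 3′ covariate.

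Clock, which encodes the main DNA-binding partner of ARNTL, read -4.77, -4.28, -4.86 and -5.01 in control rats and -4.14, -4.36, -4.44 and -4.41 in stressed rats at its brightest probe. Control rats 1, 3 and 4 lay below every stressed rat, while control rat 2 lay above 3 of the 4. Its log2 fold change was 0.39 (SE 0.16), and the second Clock probe gave 0.34 (SE 0.14). Without control rat 2 these values were 0.54 and 0.46. With the 5′ minus 3′ covariate they were 0.08 and 0.06, close to 0 on both probes.

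**Figure D1:**
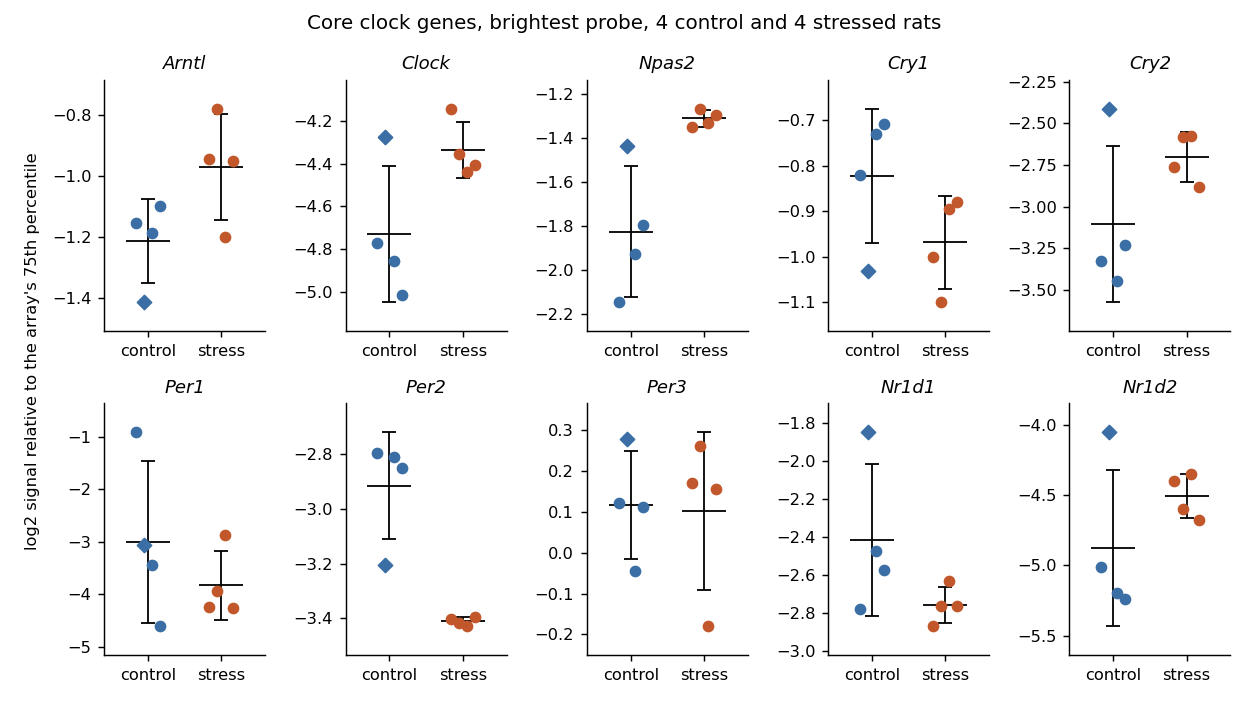
Log2 signal, centred on each array's 75th percentile (vertical axis, its own scale in each panel), of the brightest probe of each of the 10 clock genes in 4 control (blue) and 4 stressed (orange) rats. Diamonds mark control rat 2, horizontal lines the mean and bars 1 SD. Npas2 and Per2 have no overlap between the groups, and control rat 2 lies apart from the other controls in most panels.

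The negative limb did not move as 1 group. At the brightest probe 5 of its 7 genes were lower in stressed rats, and the median log2 fold change of the 7 was -0.15, against 0.39 for the 3 positive limb genes and 0.05 for all 20685 genes tested. Per2 was the gene of the limb with the clearest separation, at 0.71 times the control level. Cry1 and Nr1d1 had negative values that overlapped between the groups, Cry2 and Nr1d2 had positive values, Per3 had values near 0, and Per1 varied more between rats than between groups.

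Per2, which encodes a repressor of the ARNTL and CLOCK pair, read -2.80, -3.21, -2.81 and -2.85 in control rats. In stressed rats it read -3.40, -3.42, -3.43 and -3.40. The 4 stressed rats had an SD of 0.02 and lay below every control, and control rat 2 was the control nearest to them. Stressed rats differed from controls by a log2 fold change of -0.49 (SE 0.10). It was -0.59 without control rat 2 and -0.27 with the 5′ minus 3′ covariate. The Per2 probe lies from base 5433 of its transcript and has 10 spots per array, of which 4 over all arrays were marked as outliers and left out.

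Per1, the first Period gene and one with immediate responses to light and to glucocorticoids, read -0.92, -3.06, -3.44 and -4.61 in control rats and -4.24, -3.94, -2.87 and -4.27 in stressed rats. Control rats 1 and 4 were the highest and the lowest of all 8, so the stressed rats lay inside the range of the controls. The log2 fold change of -0.82 (SE 0.73) was smaller than the SD of the control rats, 1.54 (n = 4), and it was -0.13 without control rat 1, -0.84 without control rat 2 and -0.53 with the 5′ minus 3′ covariate.

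Per1 moved from rat to rat with markers of Schwann cells, the glia that wrap nerve roots. All 3 markers of that list (Prx, Pmp2 and Egr2) were measured, and their summed signal ranged from 0.189 to 3.52 times the 75th percentile in control rats and from 0.160 to 0.852 in stressed rats. Over the 8 rats, the mean deviation of these markers and Per1 had a Pearson r of 0.98 (exact permutation test, two-sided p = 4.96e-05) and a Spearman rho of 0.98 (exact permutation p = 0.000397). Rats were permuted without regard to group, here and for the list below, so these p values do not set apart a difference between the groups. With the group means removed r was 0.98. Within the control rats r was 0.98 and within the stressed rats 0.99. Without control rats 1 and 4, the farthest from the median of the markers, r was 0.98.

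A list of fibroblast and meninges markers (Col1a1, Col1a2, Dcn and Lum, 4 of 4 measured) followed Per1 as well, with r = 0.93 (exact permutation p = 0.000446) and rho = 0.95 (exact permutation p = 0.00114). Its r was 0.87 without the same pair of rats and 0.93 with the group means removed. Its summed signal was between 1.10 and 4.55 times the 75th percentile in control rats and between 1.14 and 3.43 in stressed rats. These are 2 of 100 relations between the 10 clock genes and 10 marker lists, and the p values adjusted over all 100 by the Benjamini-Hochberg method were 0.00496 and 0.0223 for Pearson's r and 0.0198 and 0.0380 for Spearman's rho. With the Schwann cell level as a covariate, an alternative added once the data had been seen, Per1 had a log2 fold change of -0.18. The methods of the study state that the meninges were removed. The part of nerve root or connective tissue in the level of Per1 was not tested.

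**Figure D2:**
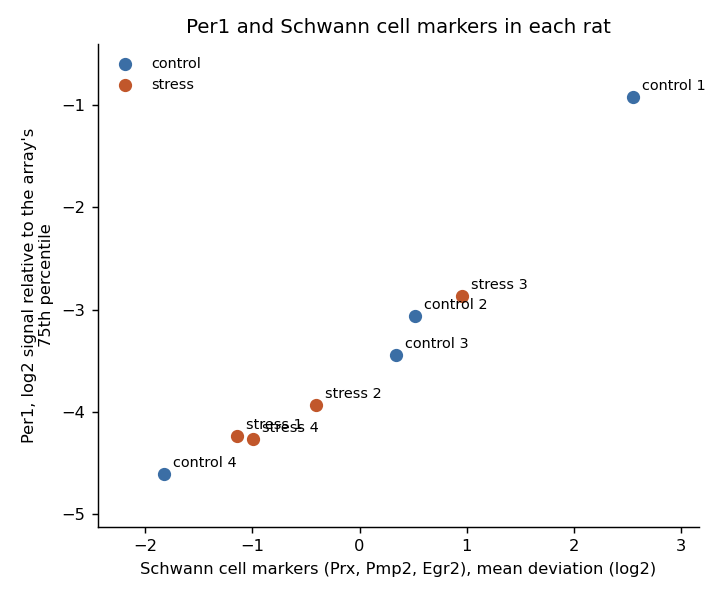
Per1 log2 signal, centred on each array's 75th percentile (vertical axis), against the mean deviation of 3 Schwann cell markers from their means over the rats, in log2 units (horizontal axis), with each point 1 rat. Control rat 1 is highest and control rat 4 lowest in both, and r over the 8 rats is 0.98.

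Per3 has 3 probes, which gave log2 fold changes of 0.10 (SE 0.10), 0.09 (SE 0.29) and -0.02 (SE 0.12), the last at the brightest. In control rats the brightest probe ranged from -0.05 to 0.28 and in stressed rats from -0.18 to 0.26. The groups overlapped at all 3 probes, and the sign was not the same across them. Without control rat 2 the values were 0.17, 0.28 and 0.04, and with the covariate they were -0.02, -0.43 and -0.13, in the same order.

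Cry1, a strong repressor of the ARNTL and CLOCK pair, read -0.82, -1.03, -0.73 and -0.71 in control rats and -1.001, -1.10, -0.90 and -0.88 in stressed rats. Control rat 2 lay with the stressed rats, and the other 3 controls lay above every stressed rat. The difference was -0.15 on the log2 scale (SE 0.10), -0.22 without control rat 2 and 0.01 with the 5′ minus 3′ covariate.

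Its relative Cry2 read -3.33, -2.41, -3.45 and -3.23 in control rats and -2.76, -2.58, -2.58 and -2.89 in stressed rats. Control rat 2 was the highest of the 8 and the other controls were the lowest 3. The log2 fold change of 0.40 (SE 0.22) was 0.63 without that rat and -0.14 with the covariate, so its sign turned. The 2 cryptochromes thus lay on opposite sides of 0 in the fit of all rats.

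Nr1d1 (REV-ERBα), which represses Arntl, read -2.78, -1.85, -2.47 and -2.57 in control rats and -2.87, -2.76, -2.63 and -2.76 in stressed rats. Here control rat 2 was the highest and control rat 1 lay among the stressed rats. The difference was -0.34 on the log2 scale (SE 0.19), and it was -0.15 without control rat 2. With the 5′ minus 3′ covariate it was -0.76 (SE 0.13). The difference was thus larger with that adjustment and smaller without that rat. The probe passed at FDR below 0.1 with the covariate, from which nothing is read as the members were chosen on this contrast. Among the controls only control rat 2 had a positive 5′ minus 3′ value, as all stressed rats did.

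Nr1d2 (REV-ERBβ), whose probe carries no rn4 position in the files, read -5.01, -4.05, -5.19 and -5.24 in control rats and -4.40, -4.60, -4.35 and -4.68 in stressed rats. As with Cry2, control rat 2 was the highest of all and the other controls the lowest. Its log2 fold change was 0.37 (SE 0.26), 0.64 without that rat and -0.24 with the covariate. The REV-ERB pair therefore also had opposite signs in the fit of all 8 rats.

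At FDR below 0.1, with p values from limma adjusted over all 23677 tested probes, 2 of the 15 clock probes passed, the Arntl probe from base 2048 and the Per2 probe, against 3.74% of all tested probes. By the brightest probe 1 of the 10 genes passed (Per2), against 3.65% of all genes, and 3 passed at an unadjusted p below 0.05, against 19.9%. The groups did not overlap at 3 clock probes, 2 higher and 1 lower in stressed rats, against 12.1% of all probes. Since the members were chosen on this contrast, nothing is read from these counts. Without control rat 2, 6 of the 10 genes passed at FDR below 0.1 (2 of the positive and 4 of the negative limb), against 40.6% of all genes.

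**Figure D3:**
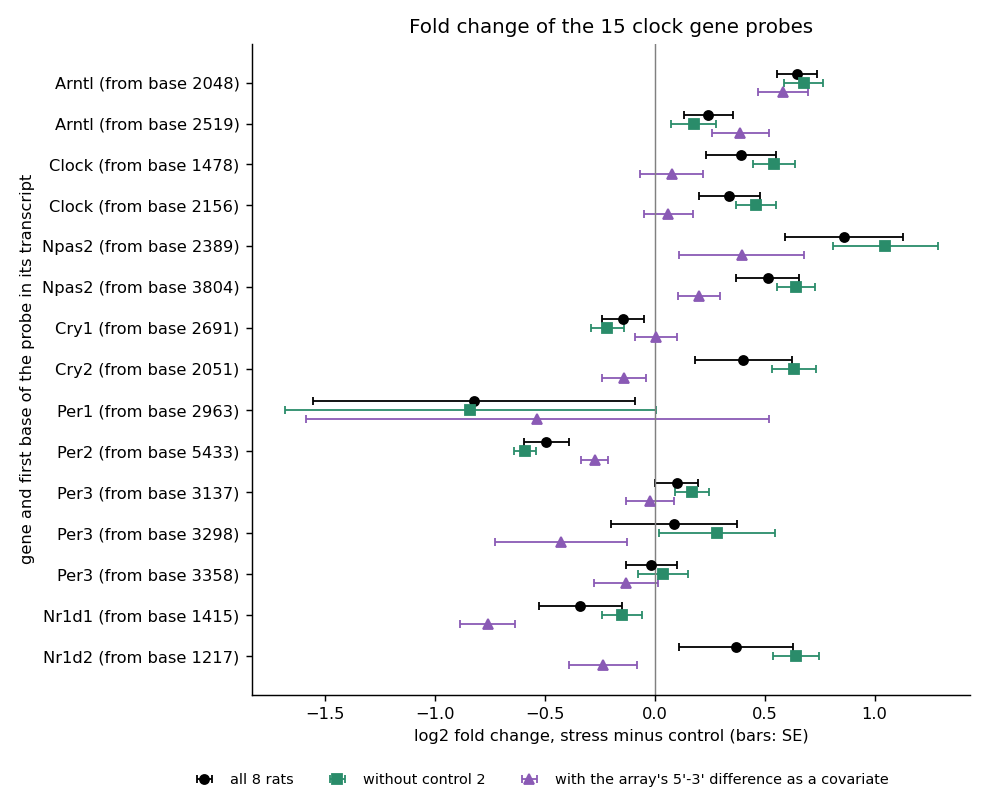
Log2 fold change, stressed minus control (horizontal axis, bars are SE), at each of the 15 clock gene probes (vertical axis), with all 8 rats (black circles), without control rat 2 (green squares) and with the 5′ minus 3′ value as a covariate (purple triangles). The positive limb stays above 0 in all 3 fits, Per1, Per2 and Nr1d1 stay below 0, and Cry1, Cry2, Nr1d2 and the Per3 probes from bases 3137 and 3298 change sign with the covariate.

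The limbs were then averaged within each rat, as the mean over genes of the deviation of the brightest probe from its mean over the 8 rats. The positive limb was at -0.29, 0.02, -0.26 and -0.24 in control rats 1 to 4 and at 0.25, 0.26, 0.07 and 0.18 in stressed rats 1 to 4. Every stressed rat was above every control, with control rat 2 and stressed rat 3 nearest to each other. The negative limb was at 0.29, 0.32, -0.09 and -0.22 in control rats and at -0.14, -0.08, 0.09 and -0.17 in stressed rats. Its groups overlapped, as control rat 3 lay within and control rat 4 below the range of the stressed rats.

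With the group means removed, the 2 limb means had a Pearson r of 0.22 over the 8 rats. The r values with 1 rat left out had an SD of 0.33, which is their plain spread and not a standard error of r. The r was -0.56 without control rat 2, and it was 0.81 when Per1 was left out of the negative limb, a setting added once the data had been seen. It lay between 0.13 and 0.51 when any other single rat was left out. The co-variation of the limbs within groups thus had no settled sign.

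**Figure D4:**
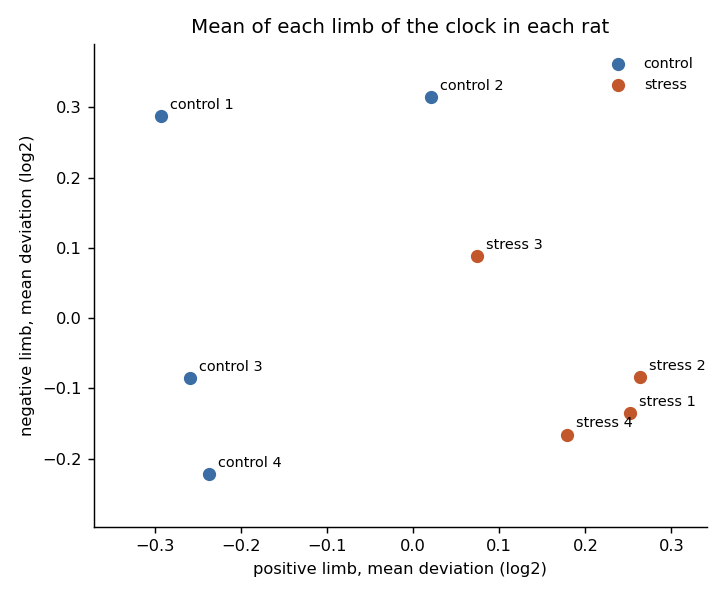
Mean deviation of the negative limb (vertical axis, log2, 7 genes) against that of the positive limb (horizontal axis, log2, 3 genes), with each point 1 rat. The stressed rats lie to the right of all controls, and the controls spread over the whole vertical range, with control rats 1 and 2 near 0.3.

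Between single genes, with group means removed and both genes of a pair read on the same array, many pairs changed when control rat 2 was left out. Of the 21 pairs across the limbs, 12 had a positive r and their median was 0.15. Npas2 and Per2 had r = -0.91 and Npas2 and Nr1d1 r = 0.92. Among the 21 pairs within the negative limb, Cry2 and Per2 had r = -0.96 and Cry2 and Nr1d2 r = 0.92. Without control rat 2 the values for these 4 pairs were -0.77, 0.61, -0.72 and 0.31. Clock and Nr1d2 went from 0.91 to 0.49, and Clock and Per2 from -0.82 to 0.70. Within the positive limb there are 3 pairs. Arntl had r = -0.46 with Clock and -0.42 with Npas2, and Clock and Npas2 had 0.60. Without control rat 2 the values in this order were 0.17, 0.255 and -0.65.

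Genes next to the core loop were compared in the same fit. The partners of the loop are activators and repressors that act on the same promoter sites, and 9 of the 10 listed were tested, Ciart being the gene not analysed here. None passed at FDR below 0.1 by the brightest probe (limma), against 3.65% of all genes, and 5 passed at an unadjusted p below 0.05, against 19.9%. Their median log2 fold change was 0.41, against 0.05 for all genes, with 6 higher and 3 lower. Without control rat 2, 8 of the 9 passed, 6 higher and 2 lower, against 40.6% of all genes. These shares of all genes hold also for the lists below.

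Dbp and Tef, PAR bZIP factors that act on D-boxes, were the partners whose groups did not overlap. Dbp, whose transcript swings widely over the day in many tissues, read 3.14, 3.46, 3.32 and 3.20 in control rats and 2.92, 2.70, 3.11 and 2.90 in stressed rats at its brightest probe, which is a log2 change of -0.37 (SE 0.11, adjusted p = 0.142, limma). Its other 2 probes passed at FDR below 0.1, with -0.62 (SE 0.09, adjusted p = 0.0417) and -0.57 (SE 0.07, adjusted p = 0.0370, limma). Tef read 1.26, 1.75, 1.53 and 1.595 in control rats and 1.06, 1.06, 1.06 and 1.18 in stressed rats, a difference of -0.44 (SE 0.11, adjusted p = 0.102, limma). Control rat 2 was farthest from the stressed rats in both, and without it the brightest probes gave -0.31 for Dbp and -0.37 for Tef. With the 5′ minus 3′ covariate these probes gave -0.51 for Dbp and -0.61 for Tef. The third member of the family, Hlf, gave 0.53 (SE 0.28, adjusted p = 0.312, limma). It gave 0.82 without control rat 2 and -0.11 with the covariate, so its sign turned. Nfil3, which competes with these factors for D-boxes, gave 0.20 (SE 0.14, adjusted p = 0.439, limma) and -0.09 with the covariate.

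The ROR receptors activate Arntl. Rora read -4.56, -3.63, -4.48 and -4.16 in control rats and -3.52, -3.53, -3.47 and -3.68 in stressed rats, which is a log2 change of 0.66 (SE 0.20, adjusted p = 0.143, limma). Only control rat 2 reached the level of the stressed rats, and the change was 0.85 without it. With the 5′ minus 3′ covariate the change was 0.18. Rorb gave 0.41 (SE 0.14, adjusted p = 0.169, limma), with the same rat highest among the controls. Rorb was at 0.50 without that rat and at 0.20 with the covariate.

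Bhlhe40 and Bhlhe41 (DEC1 and DEC2) repress the ARNTL and CLOCK pair at E-boxes. Bhlhe40 read -4.93, -2.21, -4.77 and -4.42 in control rats and -2.71, -2.63, -2.34 and -2.85 in stressed rats. Control rat 2 was above all stressed rats and the other controls were far below them. Its log2 fold change was 1.45 (SE 0.56, adjusted p = 0.214, limma), 2.07 without control rat 2 and 0.01 with the 5′ minus 3′ covariate. Bhlhe41 was likewise highest in control rat 2, with a log2 fold change of 0.68 (SE 0.53, adjusted p = 0.476), 1.26 without that rat and -0.67 with the covariate. Arntl2, a relative of Arntl, gave -0.01 (SE 0.20, adjusted p = 0.983, limma) and -0.42 with the covariate.

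**Figure D5:**
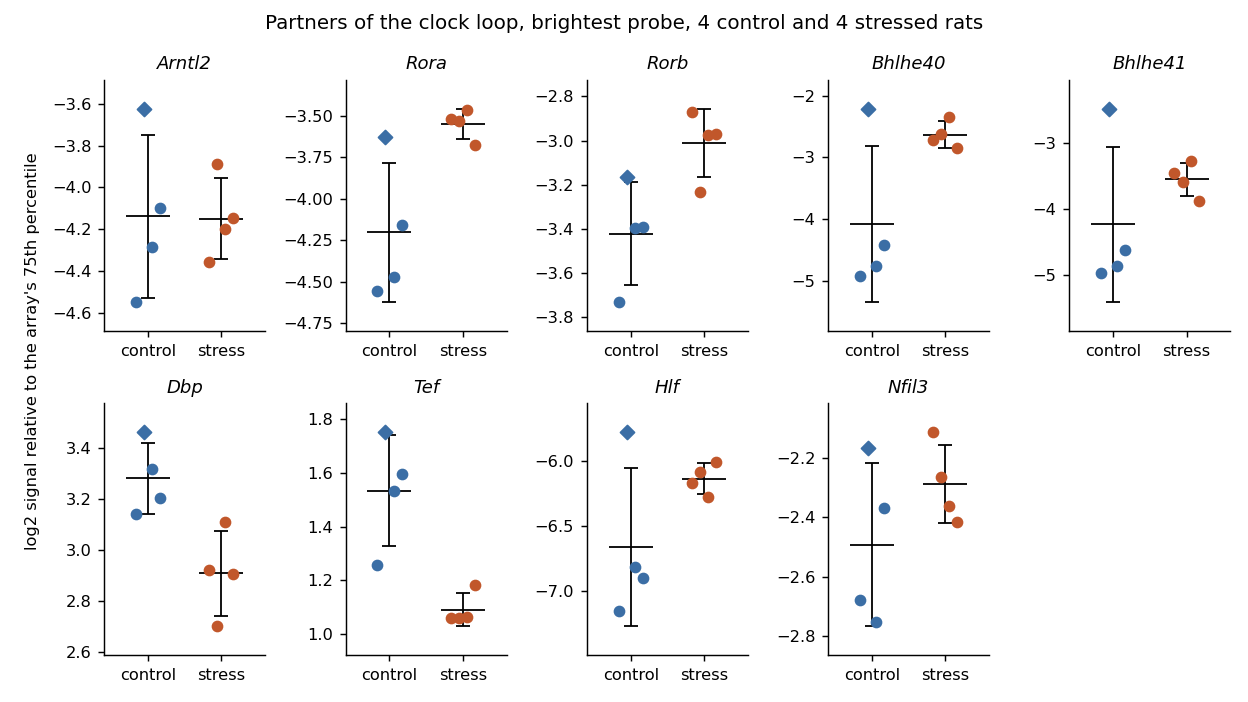
Log2 signal, centred on each array's 75th percentile (vertical axis, its own scale in each panel), of the brightest probe of 9 partners of the clock loop in 4 control (blue) and 4 stressed (orange) rats. Diamonds mark control rat 2, horizontal lines the mean and bars 1 SD. Dbp and Tef are lower in all stressed rats, and in the Bhlhe40, Bhlhe41 and Hlf panels control rat 2 lies above the stressed rats.

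Of 19 genes that modify clock proteins, 18 were tested. Timeless, which binds PER and CRY proteins and acts at replication forks, was the 1 that passed at FDR below 0.1. It fell from -4.31, -4.20, -4.31 and -4.33 in control rats to -4.47, -4.63, -4.60 and -4.62 in stressed rats, with no overlap. Its log2 fold change was -0.29 (SE 0.07, adjusted p = 0.0957, limma), and with control rat 2 left out the value was -0.26. The others did not pass, and 10 of the 18 passed without control rat 2, 7 higher and 3 lower. Over all 18 the median was 0.005, with 9 higher and 9 lower.

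Of 13 output genes 12 were tested and none passed at FDR below 0.1 by limma, while 3 passed at an unadjusted p below 0.05. When control rat 2 was left out, 7 of the 12 passed at FDR below 0.1, 3 higher and 4 lower. Tspan4 gave -0.29 (SE 0.08, adjusted p = 0.132), the cell cycle inhibitor Cdkn1a 0.73 (SE 0.24, adjusted p = 0.167) and the transferrin receptor Tfrc -0.33 (SE 0.13, adjusted p = 0.210, limma). The brightest and the other probe disagreed in sign for Cdkn1a and for Tfrc, whose other probes gave -0.05 and 0.51. With the 5′ minus 3′ covariate the brightest probes gave -0.17 for Tspan4, 0.16 for Cdkn1a and -0.06 for Tfrc. The median over the 12 genes was -0.04, with 5 higher and 7 lower.

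Glucocorticoids reset clocks outside the brain's master clock, and Per1 is one of their direct targets, so a list of 13 glucocorticoid-responsive genes was read in the same fit. Of these, 2 rose at FDR below 0.1 and none fell, and without control rat 2 there were 7 that passed, 4 higher and 3 lower. The kinase Sgk1 read -2.15, -1.38, -2.38 and -1.39 in control rats and -0.28, -0.48, -0.24 and -0.98 in stressed rats, which is a log2 change of 1.33 (SE 0.28, adjusted p = 0.0772, limma), and 1.48 without control rat 2. Zbtb16 rose by 0.50 (SE 0.12, adjusted p = 0.0982, limma), and by 0.56 without that rat. The groups did not overlap in either gene. With the 5′ minus 3′ covariate Sgk1 was at 0.835 and Zbtb16 at 0.37. Fkbp5 was lower in every stressed rat than in any control, at -0.21 (SE 0.065, adjusted p = 0.1525, limma), and was also at -0.21 with the covariate. Pdk4, at 1.22 (SE 0.32, adjusted p = 0.111, limma), and Dusp1, at 0.42 (SE 0.12, adjusted p = 0.128, limma), were higher in every stressed rat than in any control. With the covariate they were at 0.59 and 0.26. Fkbp5 was thus the only lower gene among the 5 of this list whose groups did not overlap. Over the 13 genes the median was 0.04, with 9 higher and 4 lower, and 5 had an unadjusted p below 0.05 (limma).

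Immediate early genes respond within minutes to activity and to handling. None of 9 passed at FDR below 0.1 by limma and 1 passed at an unadjusted p below 0.05. When control rat 2 was left out, 2 of the 9 passed at FDR below 0.1, 1 higher and 1 lower. The gene with the smallest p, Fosb, gave 1.17 (SE 0.38, adjusted p = 0.165, limma). It gave 1.47 without that rat and 0.42 with the 5′ minus 3′ covariate. Nr4a1 gave 0.22 (SE 0.17, adjusted p = 0.464) and Egr1 0.26 (SE 0.21, adjusted p = 0.513, limma) at its brightest probe and 1.78 (SE 0.58, adjusted p = 0.167, limma) at the other, and the median of the list was 0.01. With the covariate Nr4a1 was at 0.38 and the Egr1 probes were at 0.705 (brightest) and 0.905.

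Genes were ranked by the Pearson r of their brightest probe with the difference of the limb means (negative minus positive) over the 8 rats. That difference was 0.58, 0.29, 0.17 and 0.02 in control rats 1 to 4 and -0.39, -0.35, 0.01 and -0.35 in stressed rats 1 to 4. It includes Per1, the member that varied most between rats. In control rat 1 the negative limb was at 0.29 with Per1 and at -0.08 without it, and in control rat 4 at -0.22 and -0.06. The ranking was not repeated without Per1. Of 13373 gene symbols, 63 had r above 0.9 and 45 below -0.9. The highest were Fez2 (r = 0.98), Vasn (0.97), Cd40 (0.97), Bub3 (0.96) and Bmp2 (0.96). The lowest were Glycam1 (r = -0.99), Sec23a (-0.96), Adra2c (-0.95), Tubgcp3 (-0.95) and Polr3k (-0.94). As these are the extremes of a ranking over 8 rats, they carry no test. Dbp had r = 0.75, Tef 0.55 and Bhlhe40 -0.54.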

How the data were processed

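RNA of 8 rat spinal cords was hybridized to 1-colour Agilent rat arrays, 1 per rat. The authors deposited spot intensity values from Agilent Feature Extraction 10.7.3.1, background-subtracted and detrended within each array, and a table of the same intensity values rounded. The paper names dChip for further steps, not the normalization or test. Here 4259 control spots were left out, outlier spots were set to missing, log2 signals were centred on each array's 75th percentile and spots of 1 probe averaged. Probes well above background (0.5 or more of their spots) on 4 or more arrays, whatever their group, were kept, 23677 in all. Groups came from the sample labels and were compared with limma 3.58.1 in R 4.3.3, two-sided, with Benjamini-Hochberg adjustment over these probes and a threshold of 0.1. Sequence matching, permutations and figures used Python with pandas and matplotlib. The fit was tested on simulated data. As arrays give no counts, their number limits the precision.

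The members and lists were chosen with earlier results of these data known. Named genes are all members, all tested loop partners, and of each other list those called or, where none was, the 3 with the smallest p. Fkbp5, Pdk4 and Dusp1 were added once their values had been seen. The log2 fold changes, the calls and the limb correlation were recomputed under other backgrounds, scalings, filters, variance models, covariates and with each array left out. Replicate numbers were taken from the titles. A few genes were left out of the lists and are not reported here. P values measure the spread between these rats. Exons and UTRs of the probes were not analysed here, as no genome of build rn4 was read.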

Additional observations from a re-analysis of the deposited data

Results flagged for a closer look

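In the 4 control rats, Per2 of control rat 2 lay far from the other controls, at -3.21 against -2.80, -2.81 and -2.85. Its gap to the nearest rat was 0.864 of the range of the group, above Dixon's critical value for 4 samples. The stressed rats lay between -3.43 and -3.40, so this control rat lay between the other controls and the stressed rats. Over the member genes and scores, 34 groups were examined in this way and 1 passed, where chance alone passes about 1 in 20.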

How the results depend on the processing

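Arntl, Clock, Npas2, Per1, Per2 and Nr1d1 kept the sign of their log2 fold change in all 20 alternatives, and Cry1, Cry2 and Nr1d2 in 19. With the 5′ minus 3′ value as covariate Cry1 was at 0.006, Cry2 at -0.14 and Nr1d2 at -0.237. Per3 (-0.02) turned to 0.116 with array weights, 0.039 without control replicate 2 and 0.057 with the mean of its probes, and lay between -0.069 and 0.078 (without stress replicate 3) with 1 rat left out. Counts follow as probes, clock genes and other clock pathway genes called, which were 885, 1 and 1 in the fit described. They were 229, 0 and 0 with normexp, 1180, 1 and 2 with quantile normalization, 1266, 1 and 4 with median scaling, 3010, 2 and 3 without a filter, 1079, 1 and 2 with the filter on 8 arrays, 1295, 2 and 2 with a variance trend, 11983, 8 and 25 with array weights, 2393, 2 and 8 with the 5′ minus 3′ covariate, and 45, 0 and 0 with the Schwann cell covariate, which was chosen after seeing the data. The authors' table gave 885, 1 and 1, and the mean of a gene's probes gave 2 clock genes and 2 others.

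The sources used here do not say that same-numbered rats shared a batch or day, and deviations of same-numbered rats correlated at 0.095, 0.12, -0.087 and 0.305. With the replicate number as a block (replicate block), 0 probes, 0 clock genes and 0 other clock genes were called. With 1 rat left out, between 0 and 10038 probes, 0 and 6 clock genes and 0 and 25 other clock genes were called. The highest values were without control replicate 2, and without any other rat at most 72 probes and 0 clock genes by the brightest probe were called. Per2 was not called then, and the Arntl probe from base 2048 was called without stress replicate 3 (adjusted p = 0.0986, limma) and not without any other of these rats. The limb correlation of 0.22 was 0.77 with normexp, -0.399 with quantile normalization, -0.454 with median scaling and 0.812 without Per1, and it lay between -0.559 and 0.514 with 1 rat left out. Of the called probes 74.0% were higher in stressed rats, against 58.1% with quantile normalization, 47.2% with median scaling and 87.3% with normexp, and the median of all probes was 0.06, -0.01, -0.05 and 0.07 in that order. The cause of these differences was not tested.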

Other observations

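The levels of other clock genes also moved from rat to rat with a marker list, and the relations named here were chosen after their values were seen. As both the genes and the lists can differ between the groups, the values are given as a description with no test. Npas2 and the neuron list (3 of 4 markers measured) had r = 0.92 over the 8 rats and 0.75 with the group means removed, with 0.98 within the control rats and 0.18 within the stressed rats. Cry2 and the astrocyte list (Gfap, Aqp4, Aldh1l1 and Slc1a3) had r = 0.93 over the 8 rats and 0.91 with the group means removed, with 0.996 within the control rats and 0.86 within the stressed rats. The markers of this list did not move together. Gfap, which varied most between rats, had a log2 fold change of 0.81 and Aqp4 0.26, against -0.08 for Aldh1l1 and -0.20 for Slc1a3. The 5′ minus 3′ value of the arrays was not accounted for in any of these relations. Per2 and the neuron list had r = -0.92 over the 8 rats and -0.69 with the group means removed. Within the control rats that r was -0.97 and within the stressed rats 0.845. Over the 8 rats, Per2 and Cry2 had r = -0.88 and 0.89 with the oligodendrocyte list, and Nr1d2 had 0.90 with the astrocyte list. With the group means removed these were -0.74, 0.86 and 0.875. The summed signal of the neuron list was between 45.1 and 48.1 times the 75th percentile in control rats and between 52.5 and 65.2 in stressed rats, and that of the astrocyte list between 43.7 and 52.6 and between 47.1 and 65.8. The part of cell content in these values was not tested.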
